A study of Rattus norvegicus with 9 samples.

Results

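The NRF2 antioxidant and aldo-keto reductase genes described here were 10 named genes of rat osteoblasts, chosen by symbol for their known role. They were Nfe2l2 (ENSRNOG00000001548), Nqo1 (ENSRNOG00000012772), Hmox1 (ENSRNOG00000014117), Gclc (ENSRNOG00000006302), Gclm (ENSRNOG00000013409), Gsr (ENSRNOG00000014915), Gsta4 (ENSRNOG00000030449), Txnrd1 (ENSRNOG00000009088), Srxn1 (ENSRNOG00000031167) and Akr1c15 (ENSRNOG00000021735). They made up 10 of the 19085 genes in the count table, and all 10 were among the 13256 genes that had enough counts to be tested. Messenger RNA was sequenced from primary osteoblasts of the calvaria of male Sprague-Dawley rats that were 24 hours old. Every group was kept for 7 days in the same osteogenic induction medium, which held serum, β-glycerophosphate, ascorbic acid and dexamethasone. The control group (3 libraries) had this medium alone, the thrombin group (3 libraries) had 20 U/mL thrombin added, and the PD03 group (3 libraries) had 20 U/mL thrombin together with PD0325901, an inhibitor of the kinase MEK. The PD03 dose stands as 0.1 μM in the series design and as 0.1 mM in a protocol label. No group had PD03 without thrombin. The labels name the tissue as knee where the protocols name calvaria, and they do not say whether the 3 libraries of a group came from separate animals or cultures, so p-values measure the spread between these libraries only.

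NRF2, the product of Nfe2l2, is a transcription factor that KEAP1 holds at a low level by marking it for degradation. When electrophiles or oxidants modify KEAP1, NRF2 accumulates, pairs with a small MAF protein and binds the antioxidant response element, which BACH1 with the same partners can occupy as a repressor. Its best known targets make and recycle glutathione (Gclc, Gclm, Gsr), use it (Gsta4), run the thioredoxin and peroxiredoxin cycle (Txnrd1, Srxn1), reduce quinones (Nqo1) and break down haem (Hmox1). Aldo-keto reductases reduce aldehydes and ketones with NADPH, and several of them are also known targets. NRF2 is controlled largely at the protein level, which messenger RNA does not show.

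RefSeq promoters (build GRCr8, which is not the build of the counts) were at hand for 8 of the 10 genes. The 250 bases upstream of the start site are printed for the aldo-keto reductase genes Akr1c15 and Akr1c14, the member with the largest difference with thrombin and its neighbour, and for Gclm and Txnrd1, which hold the core of the antioxidant response element. Each is read 5′ to 3′ along the gene, and capitals mark TGACNNNGC, the core, on either strand, so that a match on the opposite strand stands as the reverse complement.
Akr1c15, chr17:71117958-71118207, minus strand: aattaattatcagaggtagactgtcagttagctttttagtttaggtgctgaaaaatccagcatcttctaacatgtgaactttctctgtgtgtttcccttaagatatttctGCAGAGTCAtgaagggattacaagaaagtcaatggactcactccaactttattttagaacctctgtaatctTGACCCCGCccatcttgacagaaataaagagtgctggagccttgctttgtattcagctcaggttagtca
Akr1c14, chr17:71083185-71083434, minus strand: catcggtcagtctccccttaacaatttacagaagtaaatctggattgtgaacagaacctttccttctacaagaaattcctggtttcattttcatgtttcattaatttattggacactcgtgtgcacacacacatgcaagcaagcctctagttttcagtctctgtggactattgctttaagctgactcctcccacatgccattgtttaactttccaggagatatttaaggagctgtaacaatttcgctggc
Gclm, chr2:213031885-213032134, plus strand: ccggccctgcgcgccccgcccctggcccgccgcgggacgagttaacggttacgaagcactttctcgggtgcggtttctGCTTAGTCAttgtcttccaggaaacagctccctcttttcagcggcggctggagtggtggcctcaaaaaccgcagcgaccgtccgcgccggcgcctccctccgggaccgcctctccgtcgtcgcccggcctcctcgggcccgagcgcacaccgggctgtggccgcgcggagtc
Txnrd1, second of 2 start sites, chr7:22755905-22756154, minus strand: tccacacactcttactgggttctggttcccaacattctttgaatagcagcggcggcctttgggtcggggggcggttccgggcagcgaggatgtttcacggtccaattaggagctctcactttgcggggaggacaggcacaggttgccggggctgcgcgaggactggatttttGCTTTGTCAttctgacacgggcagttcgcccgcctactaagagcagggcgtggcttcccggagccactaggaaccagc
Akr1c15 held the core at 140 bases (opposite strand) and at 69 bases (gene strand) before its start, Gclm at 172 and Txnrd1 at 78, both on the opposite strand, and Akr1c14 had no match in this window. Over the window from 250 bases before to 50 after the start, the core stood in 4 of the 8 genes (the fourth was Nfe2l2, 39 bases after its start) and in 12.1% of all 33469 promoters. The AP-1 site TGANTCA, searched on both strands, stood in 1 of the 8 genes, Srxn1, at 62 and at 5 bases before the start, and in 7.33% of all promoters. A gene counted if any of its start sites matched, while the shares of all promoters count each start site separately. Of 101 genes of the wider pathway list described below, counted by gene, 22 (21.8%) held the core and 10 (9.9%) the AP-1 site. A TGACTCA run that GC follows would match both patterns, and no match listed here did so. Akr1c14 and Akr1c15 are neighbours on chromosome 17, with 0 protein-coding genes between them in that build.

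The libraries held 15447832 to 17646598 counts in the control group, 16477182 to 17894354 in the thrombin group and 16195107 to 19841468 in the PD03 group, and the labels gave no sequencing batch. Of 10 genes known to follow MEK and ERK activity, 8 fell in PD03 against thrombin, 80% beside 6.31% of all tested genes (threshold given below). The median log2 fold change of the 10 was -1.02, and 0 rose by edgeR, DESeq2, limma voom or at an unadjusted p under 0.05. In thrombin against control Dusp4 and Phlda1 rose past the threshold, 20% beside 2.62% of all tested genes, and the median of the 10 was 0.031. At an edgeR adjusted p under 0.05 alone, Fosl1 was also higher there and Dusp6, Spry2 and Etv5 were lower. Of all tested genes 14.1% were higher and 14.6% lower at that cutoff. Col1a1, the main collagen gene of bone, made up 6.78% to 6.96% of each PD03 library but 4.18% to 5.05% of each control or thrombin library, which bears on any scaling by library totals. The 8 osteoblast markers, 5 of them tested, summed to 44351 to 49321 CPM (counts scaled to the library size) in control, 41160.2 to 44566 in thrombin and 71200.5 to 73175 in PD03 libraries, nearly all of it Col1a1. Runx2, the factor that commits cells to bone, went another way, at 42.8 CPM in control, 51.1 in thrombin and 32.1 in PD03, and was called lower in PD03 against thrombin (-0.67). Alpl of the same list was low, at 1.67 CPM in control, 0.345 in thrombin and 3.11 in PD03. It was called lower with thrombin (-2.24) and higher in PD03 against thrombin (3.14) and against control (0.90). Sp7 and Phex, also tested, were not called in any comparison, although Sp7 was higher with thrombin (0.53, edgeR adjusted p = 0.018). The late markers Ibsp and Dmp1 were at 0 in all thrombin libraries and at most at 4 counts elsewhere. Bglap, the osteocalcin gene, was not tested either and did not follow them, with 2 to 3 counts in control, 1 to 5 in thrombin and 1 to 3 in PD03 libraries.

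Markers of other cells moved with the groups too, in different directions. The 3 tendon markers, all tested, summed to 55.7 to 58.7 CPM in control, 41.0 to 48.0 in thrombin and 190.1 to 198 in PD03 libraries, most of it Tnmd (46.2, 24.8 and 176 on average), while Scx of the same list was highest in thrombin (4.81, 12.8 and 7.75). The 8 myeloid markers (2 tested) summed to 20.8 to 23.8, 29.2 to 32.8 and 17.6 to 19.3 CPM, with Cd14 giving most of it. Csf1r, the other one tested, averaged 0.44, 0.75 and 1.24 CPM and was called higher in PD03 against control (1.47). The 5 adipocyte markers (1 tested) summed to 1.52 to 1.96, 0.494 to 1.11 and 1.38 to 1.88 CPM, and Pparg, the one tested, was called lower with thrombin (-1.88) and higher with PD03 added (1.77). Endothelial markers (3 of 5 in the table, 2 tested) summed to 6.69 to 7.77, 6.31 to 8.51 and 11.1 to 12.6 CPM, with Kdr and Tek called higher in PD03 against thrombin. Chondrocyte markers (4 of 5 in the table, 4 tested) summed to 90.5 to 101, 66.3 to 71.8 and 77.7 to 85.0 CPM, with Sox9 and Acan called higher and Col2a1 lower with thrombin. Of these lists only Adipoq was at 0 throughout a group, in PD03. Their part in the results was not tested, and in bulk RNA fewer cells of a type and less RNA per cell cannot be told apart.

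Levels are given as CPM scaled by TMM, and a gene is called here when edgeR's quasi-likelihood test gave a Benjamini-Hochberg adjusted p under 0.05 with a log2 fold change beyond 0.58 in either direction, the threshold of the study. With thrombin, 1 of the 10 genes was called, Akr1c15, which fell, where 8.06% of all tested genes were called (2.62% higher and 5.44% lower). With PD03 added to thrombin 2 were called, Hmox1 and Akr1c15, which both rose (all tested genes 15.9%, with 9.61% higher and 6.31% lower), and between PD03 and control 1 was called, Hmox1, which was higher in PD03 (all tested genes 8.97%, with 4.9% higher and 4.07% lower). No member was called higher in thrombin than in control or lower in PD03 than in either group, by edgeR, DESeq2 or limma voom, although 1, 4 and 3 members went in those directions at an unadjusted p under 0.05. The share of all tested genes at an unadjusted p was not counted, here or below. Both comparisons with thrombin use the same 3 thrombin libraries, so a thrombin library that stood apart would move both.

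Several differences passed the test without reaching the fold threshold. At an adjusted p under 0.05 with no fold threshold, 6 genes changed with thrombin (Txnrd1 rose, and Nfe2l2, Nqo1, Gclc, Gsr and Akr1c15 fell), where 28.7% of all tested genes did (14.1% higher and 14.6% lower). In PD03 against thrombin 6 changed (Hmox1 and Akr1c15 rose, and Nfe2l2, Nqo1, Gclc and Txnrd1 fell; all tested genes 49.8%, with 25.3% higher and 24.5% lower), and in PD03 against control 4 did (Hmox1 rose, and Nfe2l2, Nqo1 and Gclc fell; all tested genes 39.9%, with 19.7% higher and 20.2% lower). In CPM scaled by TMM, the libraries of the compared groups did not overlap for 6, 8 and 6 of the 10 genes, against 40.3%, 55.5% and 47.8% of all tested genes. The median log2 fold change of the 10 genes was -0.16, -0.0036 and -0.17, beside -0.0060, 0.011 and -0.0039 over all tested genes. The genes did not move together: in every comparison some of them passed in one direction and others in the opposite one or not at all.

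**Figure D1:**
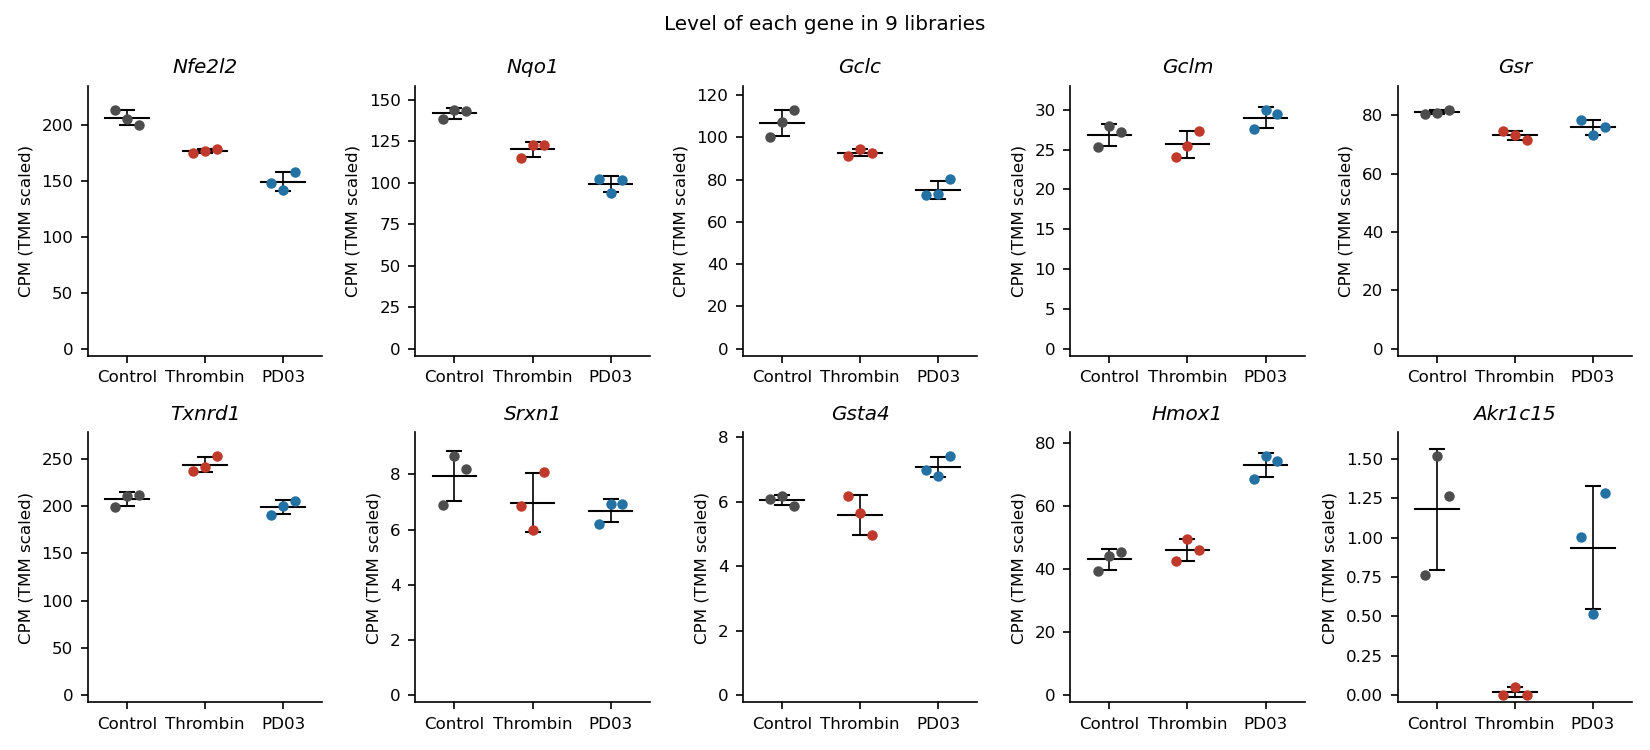
Level of each of the 10 genes in the 9 libraries, in CPM scaled by TMM (vertical axes start just below 0 and differ between panels), with points for libraries, a horizontal line for the mean of 3 and bars for 1 SD. Nfe2l2, Nqo1 and Gclc step down from control to thrombin to PD03, Txnrd1 is highest in thrombin, Hmox1 is highest in PD03 and Akr1c15 is near 0 in thrombin.

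**Figure D2:**
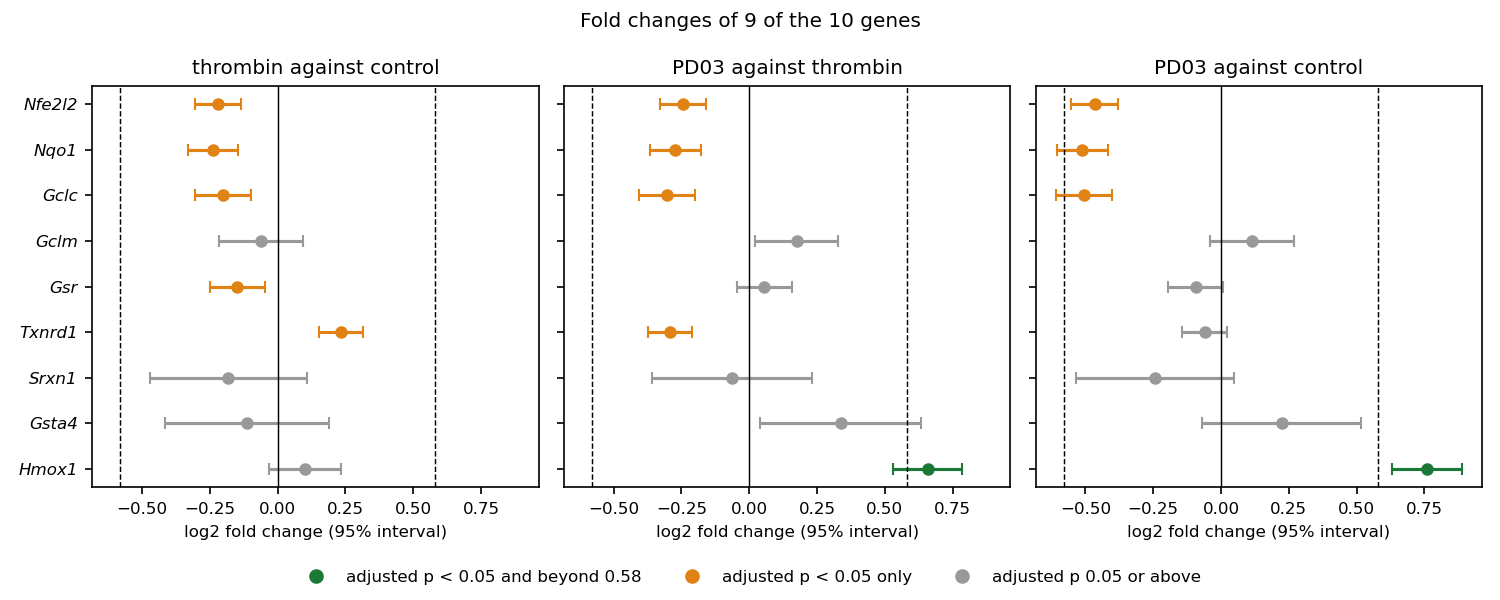
Log2 fold change (horizontal axis) of 9 of the 10 genes in the 3 comparisons, with 95% intervals from the edgeR fit, lines at 0 and dashed lines at 0.58 on either side. Akr1c15 is left out because its fitted values rest on counts near 0. Hmox1 alone of the 9 lies beyond the dashed line, in both comparisons with PD03.

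Nfe2l2, the gene of NRF2 itself, fell with thrombin and was lower again with PD03. Its level was 213, 205 and 200.2 CPM in the control libraries, 175, 177 and 179 in the thrombin libraries and 148, 141 and 158 in the PD03 libraries. The 3 groups did not overlap. The log2 fold change was -0.22 (SE 0.042, edgeR adjusted p = 5.3e-05) for thrombin against control, -0.24 (SE 0.043, adjusted p = 5.7e-06) for PD03 against thrombin and -0.47 (SE 0.043, adjusted p = 3.6e-12) for PD03 against control. The last was not called, and it reached the threshold when libraries were scaled by their totals (-0.58) or from FPKM with 0.1 added (-0.58). These scalings moved the median of all tested genes by -0.12 and -0.11 in PD03 against control.

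Keap1, the adaptor that targets NRF2 for degradation, averaged 58.6 CPM in control, 59.4 in thrombin and 57.5 in PD03 libraries and had no adjusted p under 0.05 (named after its values were seen). Among the 10 tested regulators of NRF2, 3 fell in PD03 against thrombin (6.31% of all tested genes did). Bach1, the repressor at the same element, averaged 51.0 ± 4.03 CPM (SD, n = 3) in control, 56.5 ± 4.54 in thrombin and 35.1 ± 2.76 in PD03, with a log2 fold change of -0.69 (edgeR adjusted p = 2.5e-11) in PD03 against thrombin. The small MAF genes Maff (17.6 ± 1.16 to 9.85 ± 0.819 CPM; log2 fold change -0.84, adjusted p = 3.5e-09) and Mafk (2.19 ± 0.328 to 1.30 ± 0.234 CPM; -0.74, adjusted p = 0.03) fell in the same comparison. Mafk lost its call without thrombin replicate 3 (-0.62, adjusted p = 0.12) or without PD03 replicate 3 (-0.61, adjusted p = 0.11), and from FPKM with 1 added its log2 fold change was -0.17. None of the 10 was called in thrombin against control by edgeR, DESeq2 or limma voom (5 higher and 0 lower at an unadjusted p under 0.05). At an edgeR adjusted p under 0.05 with no fold threshold 2 were higher and 0 lower there, beside 14.1% and 14.6% of all tested genes. In PD03 against control Maff alone was called, at -0.64 (-0.58 and not called without PD03 replicate 1), 10% beside 4.07% of all tested genes called lower. Bach1 was at -0.54 there (adjusted p = 2.6e-08) and was called with library totals (-0.66).

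Nqo1 encodes a quinone reductase that is widely used as a readout of NRF2, and it stepped down across the groups much as Nfe2l2 did. It was at 138, 144 and 143 CPM in control, 115, 123 and 123 in thrombin and 103, 94.1 and 102 in PD03 libraries. No group overlapped another. The log2 fold change was -0.24 (SE 0.045, adjusted p = 5.4e-05) with thrombin, -0.27 (SE 0.046, adjusted p = 3.8e-06) with PD03 added and -0.51 (95% interval -0.60 to -0.42, adjusted p = 2.6e-12) in PD03 against control. The last passed the fold threshold with library totals (-0.63) and from FPKM with 1 (-0.62) or 0.1 (-0.63) added.

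Hmox1, the inducible haem oxygenase that turns haem into biliverdin, iron and carbon monoxide, went the other way. It was at 39.4, 44.3 and 45.5 CPM in control, 42.6, 49.6 and 46.1 in thrombin and 68.5, 75.7 and 74.3 in PD03 libraries. The PD03 libraries stood above all 6 others, and the control and thrombin libraries overlapped. It rose in PD03 against thrombin by 0.66 on the log2 scale (1.58-fold, SE 0.063, adjusted p = 6e-12) and in PD03 against control by 0.76 (1.69-fold, SE 0.063, adjusted p = 2.7e-13). In thrombin against control the difference was 0.10 (95% interval -0.03 to 0.23, adjusted p = 0.27). The call against thrombin depended on the scaling, with 0.56 from library totals and 0.55 and 0.56 from FPKM with 1 and 0.1 added, just under the threshold, and a test against the threshold itself gave an adjusted p of 0.32. The adjusted p with no fold threshold stayed under 0.05 in each of these scalings. Of the tested tendon, endothelial and myeloid markers, Tnmd, Mkx, Kdr, Tek and Csf1r were also highest on average in the PD03 libraries. Scx and Cd14 were highest in thrombin. The part of these markers in this was not tested.

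The ratio of Hmox1 to Nqo1 within a library does not depend on how libraries are scaled. From FPKM, which is per length of transcript, it was 0.312, 0.337 and 0.348 in control, 0.406, 0.442 and 0.410 in thrombin and 0.733, 0.882 and 0.800 in PD03 libraries. No group overlapped another. This pair and the 2 below were chosen after their values were seen. Exact two-sided permutation tests of the 3 ratios in the 3 comparisons gave p = 0.1, the smallest that 3 against 3 libraries allow, for 8 of the 9, and 0.6 for Txnrd1 to Gsr in PD03 against control (Benjamini-Hochberg adjusted 0.1125 and 0.6), so none passed.

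Gclc and Gclm encode the catalytic and the modifier subunit of glutamate-cysteine ligase, the rate-limiting enzyme of glutathione synthesis, and only the catalytic one passed the test. Gclc was at 100.4, 107 and 113 CPM in control, 91.3, 94.5 and 92.6 in thrombin and 72.6, 73.1 and 80.1 in PD03 libraries, with no overlap between groups. Its log2 fold change was -0.20 (SE 0.050, adjusted p = 0.0018) with thrombin, -0.30 (SE 0.052, adjusted p = 4.1e-06) with PD03 added and -0.50 (SE 0.052, adjusted p = 7.7e-11) in PD03 against control. The last was called with library totals (-0.62) and from FPKM with 1 (-0.60) or 0.1 (-0.62) added. Gclm was at 25.3, 27.9 and 27.2 CPM in control, 24.1, 25.5 and 27.4 in thrombin and 27.5, 30.0 and 29.5 in PD03 libraries. In CPM its PD03 libraries lay above the thrombin libraries by a narrow margin, while in FPKM they overlapped (17.6 to 19.2 in PD03 and 16.5 to 18.7 in thrombin). The log2 fold change was 0.17 (95% interval 0.02 to 0.33, adjusted p = 0.053), and 0.075 to 0.22 over the alternatives. The adjusted p was 0.031 without thrombin replicate 3 and 0.032 without PD03 replicate 1. Gclm differed by -0.06 (adjusted p = 0.61) in thrombin against control and by 0.11 (adjusted p = 0.25) in PD03 against control. The ratio of Gclc to Gclm in FPKM was 1.94, 1.87 and 2.03 in control, 1.85, 1.81 and 1.65 in thrombin and 1.29, 1.19 and 1.33 in PD03 libraries, without overlap.

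Gsr, the reductase that regenerates glutathione from its oxidised form, was at 80.5, 80.7 and 81.9 CPM in control, 74.6, 73.2 and 71.6 in thrombin and 78.3, 73.2 and 76.2 in PD03 libraries. It fell with thrombin by 0.15 on the log2 scale (SE 0.050, adjusted p = 0.022), short of the fold threshold. Without control replicate 2 or 3 or thrombin replicate 2 or 3 the log2 fold change was -0.15 to -0.13 and the adjusted p 0.061 to 0.095. PD03 against thrombin gave 0.06 (adjusted p = 0.38) and PD03 against control -0.09 (adjusted p = 0.14), and library totals gave -0.043 and -0.21, the latter with an adjusted p of 0.00066. Gsta4, a transferase that conjugates the lipid peroxidation product hydroxynonenal to glutathione, was low, at 6.09, 6.19 and 5.87 CPM in control, 6.19, 5.65 and 4.95 in thrombin and 6.99, 6.80 and 7.41 in PD03 libraries. All PD03 libraries were above the others. The log2 fold change was 0.34 (SE 0.15, adjusted p = 0.053) against thrombin and 0.22 (adjusted p = 0.23) against control, neither past the test, and the first had an adjusted p of 0.042 without thrombin replicate 1.

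Txnrd1, the cytosolic thioredoxin reductase, was the only one of the 10 that rose with thrombin. It was at 199.5, 211 and 212 CPM in control, 237, 241 and 253 in thrombin and 191, 200.2 and 206 in PD03 libraries. The thrombin libraries stood above the other 6, which overlapped one another. The log2 fold change was 0.23 (SE 0.040, adjusted p = 1.2e-05) with thrombin and -0.29 (SE 0.040, adjusted p = 5.8e-08) with PD03 added, and neither reached the fold threshold. In PD03 against control it was -0.06 (95% interval -0.14 to 0.02, adjusted p = 0.25), and with library totals -0.18 (adjusted p = 0.00031). The ratio of Txnrd1 to Gsr in FPKM, both being NADPH-dependent reductases, was 2.36, 2.49 and 2.46 in control, 3.02, 3.14 and 3.36 in thrombin and 2.32, 2.60 and 2.57 in PD03 libraries, so that thrombin stood above both other groups. Srxn1, which restores over-oxidised peroxiredoxins, was at 6.91, 8.65 and 8.21 CPM in control, 6.84, 5.98 and 8.10 in thrombin and 6.20, 6.93 and 6.92 in PD03 libraries. The groups overlapped, and no comparison passed the test (log2 fold change -0.18, -0.06 and -0.24, adjusted p 0.38, 0.75 and 0.18), although PD03 against control had an adjusted p of 0.037 with library totals (-0.36).

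**Figure D3:**
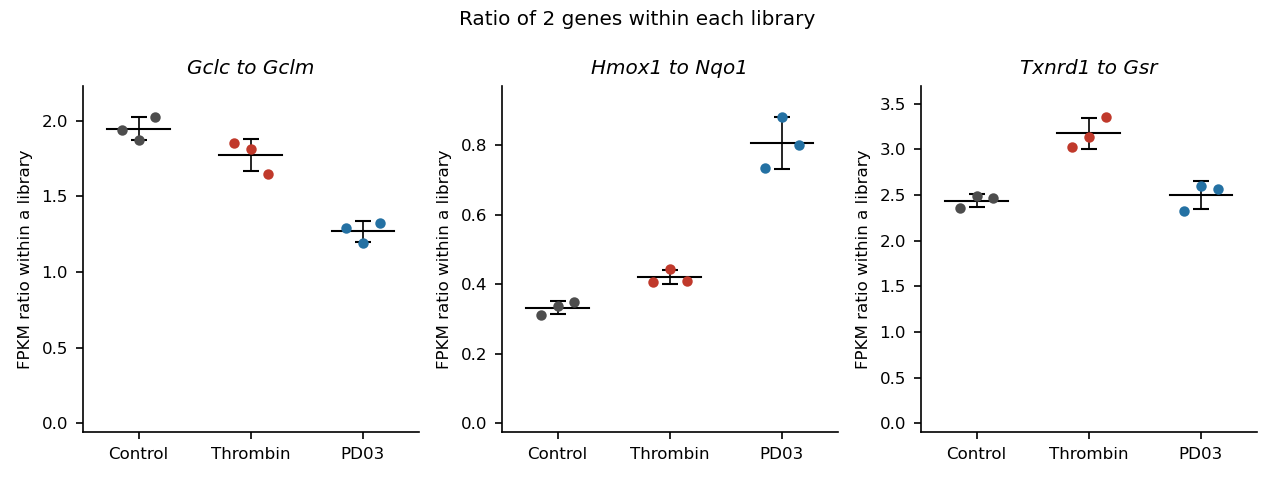
Ratio of the FPKM values of 2 genes within each library (vertical axes, starting just below 0), with points for libraries, a line for the mean of 3 and bars for 1 SD. The ratio of Hmox1 to Nqo1 is highest in PD03 (0.733 to 0.882), that of Gclc to Gclm lowest in PD03 (1.19 to 1.33) and that of Txnrd1 to Gsr highest in thrombin (3.02 to 3.36).

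Akr1c15, an aldo-keto reductase of the subfamily that includes hydroxysteroid dehydrogenases, showed the largest difference of the 10 at the lowest level. The libraries held 14, 24 and 20 counts in control, 0, 1 and 0 in thrombin and 19, 8 and 21 in PD03. The thrombin libraries did not overlap the others, and control and PD03 libraries overlapped. Scaled for library size, the summed counts were 60.5 times higher in control than in thrombin (exact 95% interval 10.4 to 2430) and 49.5 times higher in PD03 than in thrombin (8.46 to 1994), intervals that cover counting error only. The edgeR adjusted p was 5.2e-07 and 1.4e-06, while the fitted folds depend on the prior count and give no bound. Control and PD03 differed 1.22-fold in counts (0.82 to 1.83), with an adjusted p of 0.58. The gene passed the filter on low counts through the groups where it was high, and under a mean count of at least 50 it was not tested. In PD03 against thrombin it was also not tested when only the 2 groups compared were used. Of the markers given above, Pparg, Alpl, Tnmd and Col2a1 were called lower with thrombin too, and Sox9, Acan and Scx higher. The other adipocyte markers, untested and at few counts, did not all follow Pparg. The part of these markers in this was not tested.

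Akr1c14, the 3α-hydroxysteroid dehydrogenase gene next to it, had enough counts to be measured well and was lowest in thrombin too. The libraries held 357, 294 and 284 counts in control, 43, 51 and 51 in thrombin and 217, 154 and 170 in PD03, with no overlap. It fell with thrombin by 2.74 on the log2 scale (SE 0.13, adjusted p = 5.9e-21) and rose by 1.94 (SE 0.14, adjusted p = 2.5e-15) with PD03 added. Unlike Akr1c15 it was also lower in PD03 than in control, by a log2 fold change of -0.81 (SE 0.11, adjusted p = 3.8e-08), and whether the genes differ in this was not tested. Of other members of the subfamily, Akr1c3 held 6, 3 and 2 counts in control and 0 in all other libraries, Akr1c12 3, 0 and 1 in control, 0 in thrombin and 3, 0 and 0 in PD03, and Akr1c19 1, 1 and 4 in control, 0 in thrombin and 0, 0 and 1 in PD03. These genes are close copies of one another, and the sources used here do not say how reads that match several were counted, so the split between them is uncertain.

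**Figure D4:**
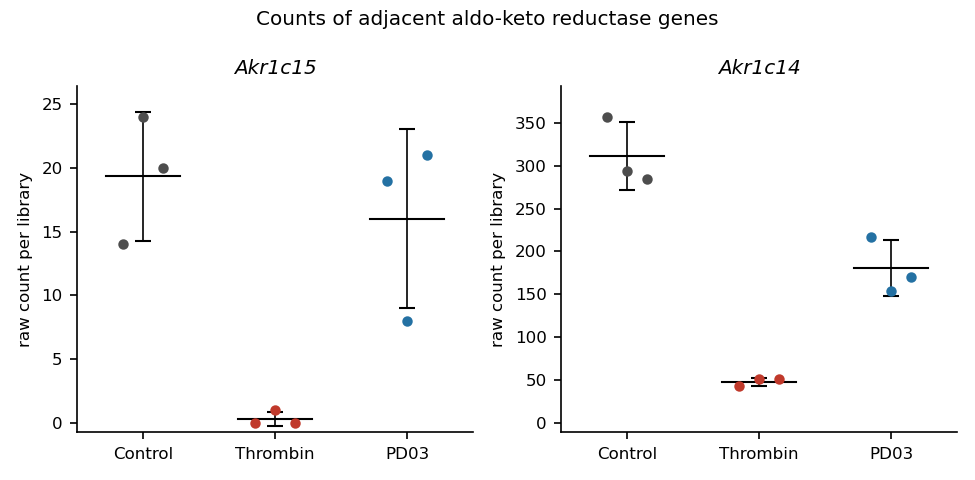
Raw counts per library of Akr1c15 and of its neighbour Akr1c14 (vertical axes, starting just below 0), with points for libraries, a line for the mean of 3 and bars for 1 SD. Akr1c15 is at 0 or 1 in thrombin and at 8 to 24 elsewhere, and Akr1c14 is at 43 to 51 in thrombin, 154 to 217 in PD03 and 284 to 357 in control.

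The genes whose pattern was most like that of Akr1c15, by the distance between their 2 fitted log2 fold changes with thrombin and with PD03 over the 3 groups, were Ripply1 (distance 0.35) and Clec3b (distance 1.88). Ripply1, a transcriptional corepressor of somite formation, held 48, 48 and 49 counts in control, 1, 0 and 2 in thrombin and 63, 41 and 47 in PD03 libraries. Clec3b, which encodes tetranectin, held 548, 496 and 485, then 48, 37 and 40, then 1138, 857 and 975. At counts near 0 this distance depends on the prior count.

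Levels between genes were compared in FPKM. In the control group the order was Nqo1 (86.3 ± 1.13, SD, n = 3), Nfe2l2 (77.9 ± 3.23), Txnrd1 (60.7 ± 1.48), Gclc (36.1 ± 1.84), Hmox1 (28.7 ± 1.91), Gsr (24.9 ± 0.197), Gclm (18.6 ± 0.778), Srxn1 (9.95 ± 1.05), Gsta4 (2.97 ± 0.0897) and Akr1c15 (0.932 ± 0.297), and no neighbours in it overlapped. In the thrombin group Nqo1 (72.3 ± 2.72) and Txnrd1 (70.4 ± 2.15) overlapped above Nfe2l2 (66.0 ± 0.532), and Gclc (31.0 ± 0.537) overlapped Hmox1 (30.4 ± 2.29). In the PD03 group Nqo1 (55.8 ± 2.51), Txnrd1 (53.7 ± 1.94) and Nfe2l2 (52.0 ± 2.82) overlapped in turn, and Hmox1 (44.8 ± 2.35) stood above Gclc (23.5 ± 1.26). The order of Gsr, Gclm, Srxn1, Gsta4 and Akr1c15 was the same in the 3 groups.

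Beyond these 10, a list of 120 genes of the same pathways was counted, of which 110 were in the table and 97 were tested. With thrombin 1 rose and 7 fell, which is 8.25% of those tested and near the 8.06% of all tested genes (median log2 fold change -0.010). With PD03 added 13 rose and 7 fell, 20.6% against 15.9% of all tested genes (median 0.048). That split depended on the scaling, with 9 of 17 calls higher from library totals, 6 of 12 from FPKM with 1 added and 9 of 18 with 0.1 added. In PD03 against control 2 rose and 6 fell, 8.25% against 8.97% (median -0.020).

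The glutathione transferases, which conjugate glutathione to electrophiles, had a median below 0 with thrombin and above 0 with PD03 added. Of 17 tested, 2 fell with thrombin, Mgst1 and Gsta1, which is 11.8% beside 5.44% of all tested genes, and 0 rose by edgeR, DESeq2 or limma voom (1 at an unadjusted p under 0.05). The median was -0.29, beside -0.0060 over all tested genes. In PD03 against thrombin 5 rose, Mgst1, Mgst3, Gstm2, Gstm7 and Gstt1, which is 29.4% beside 9.61% of all tested genes, and 0 fell by the same 3 tools (2 at an unadjusted p under 0.05; median 0.31 beside 0.011 over all tested genes, and 0.20 to 0.21 from library totals and FPKM, with 1 called lower from FPKM with 0.1 added). Called higher were 4 rather than 5 with DESeq2, with library totals and from FPKM with 1 or 0.1 added, and Gstt1 lay at the threshold (0.58). Mgst1, a microsomal transferase, was at 23.6, 20.4 and 17.6 CPM in control, 8.33, 8.61 and 6.12 in thrombin and 24.1, 22.2 and 21.0 in PD03 libraries. Its log2 fold change was -1.42 (adjusted p = 2.2e-13) with thrombin and 1.54 (adjusted p = 5.9e-15) with PD03 added, and the thrombin libraries stood apart from the rest. Mgst3 averaged 20.1 ± 2.08 CPM in control, 13.7 ± 0.484 in thrombin and 39.0 ± 1.84 in PD03, and was higher in PD03 than in thrombin by 1.50 (adjusted p = 4.6e-19) and than in control by 0.95 (adjusted p = 3.4e-13). Gstm7 went from 1.57 ± 0.280 CPM in thrombin to 3.29 ± 0.314 in PD03 (log2 fold change 1.06, adjusted p = 3.1e-04). Gsta1, Gstm2 and Gstt1, like Ephx1 and Osgin1 among the detoxifying enzymes, are named after their values were seen because the counts they belong to are small.

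Among 18 tested genes of glutathione synthesis, import and peroxidases, Gpx1, the main cytosolic glutathione peroxidase, rose with thrombin from 95.1 ± 1.40 to 145 ± 6.05 CPM (log2 fold change 0.61, adjusted p = 1.5e-14) and was at 145 ± 6.33 CPM with PD03 added. Its call with thrombin was lost without thrombin replicate 3 (0.57), and its call in PD03 against control (0.61) without PD03 replicate 1 (0.58) and with library totals (0.50). Gpx3, the secreted peroxidase, fell with thrombin from 63.4 ± 3.56 to 39.2 ± 1.35 CPM (-0.69, adjusted p = 3.9e-12) and was at 64.1 ± 5.21 CPM with PD03 added (0.71 against thrombin, adjusted p = 7.4e-13). Glrx, a glutaredoxin that removes glutathione from proteins, fell with PD03 to 20.2 ± 2.01 CPM from 37.0 ± 3.07 in thrombin (-0.87, adjusted p = 1.4e-12). From FPKM with 1 added Gpx3 was just under the threshold in PD03 against thrombin (0.58).

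Of 18 thioredoxin, peroxiredoxin, superoxide dismutase and catalase genes, 2 rose and 1 fell in PD03 against thrombin, 16.7% and near the 15.9% of all tested genes. Txnrd3, a thioredoxin reductase best known from testis, was at 4.95 ± 0.194 CPM in control, 2.39 ± 0.238 in thrombin and 4.62 ± 0.665 in PD03 (-1.05, adjusted p = 4.1e-05, and 0.94, adjusted p = 9.9e-05), opposite in direction to Txnrd1 in both. Sesn3, a sestrin, rose from 16.2 ± 0.700 CPM in thrombin to 32.2 ± 2.20 in PD03 (0.99, adjusted p = 2.3e-13). Prdx5, a peroxiredoxin of mitochondria and peroxisomes, fell from 639 ± 24.2 to 337 ± 4.09 CPM (-0.92, adjusted p = 2.1e-23). From FPKM with 1 added the difference of Txnrd3 was 0.46, which understates low genes.

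Of 10 haem and iron genes 2 rose with PD03 added, 20% beside 9.61% of all tested genes, the iron exporter Slc40a1 (20.8 ± 0.744 to 37.2 ± 1.38 CPM; log2 fold change 0.84, adjusted p = 5.1e-13) and the haem transporter Slc48a1 (57.9 ± 2.47 to 86.9 ± 4.19 CPM; 0.59, adjusted p = 2.3e-12). Slc48a1 lay at the threshold and lost its call with library totals (0.49) and without thrombin replicate 1 (0.56), among others. Slc40a1 lost its call from FPKM with 1 added (0.578). The count was thus 1 with library totals and 0 from FPKM with 1 added. In control Slc40a1 averaged 31.0 CPM and Slc48a1 72.4 CPM, both above thrombin. Their log2 fold changes with thrombin were -0.57 and -0.32, and in PD03 against control 0.27 and 0.26, none of them called. Slc40a1 was called lower with thrombin under library totals (-0.59), without control replicate 1 (-0.61) and without thrombin replicate 1 (-0.60). Among 6 NADPH-supplying genes Idh1 alone rose, 16.7% beside 9.61% of all tested genes. It went from 106 ± 11.6 to 166 ± 1.65 CPM (0.65, adjusted p = 2.1e-14). Its call was lost with library totals (0.55) and without thrombin replicate 2 (0.56).

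The last group held enzymes that reduce, oxidise or export reactive compounds. Of 18 tested aldo-keto reductases and other detoxifying enzymes, 3 fell with thrombin, Akr1c14, Aldh3a1 and Ephx1, 16.7% beside 5.44% of all tested genes, and 0 rose by edgeR, DESeq2 or limma voom (3 at an unadjusted p under 0.05). With PD03 added Akr1c14 and Ephx1 rose and Akr1b10 and Osgin1 fell. That is 22.2% beside 15.9% of all tested genes (9.61% higher and 6.31% lower), and DESeq2 called 3 lower. In PD03 against control 4 fell, Akr1c14, Aldh3a1, Akr1b10 and Osgin1 (22.2% beside 4.07%). Aldh3a1, an aldehyde dehydrogenase that is also a target of the aryl hydrocarbon receptor, was at 50.2 ± 3.51 CPM in control, 15.8 ± 1.78 in thrombin and 15.9 ± 2.60 in PD03 (-1.67, adjusted p = 1.8e-19, with thrombin; 0.02 in PD03 against thrombin). Akr1b10, a reductase of retinal and other aldehydes, averaged 28.2 ± 2.25 CPM in control and 38.0 ± 2.86 in thrombin and was at 12.8 ± 0.295 with PD03 (-1.56 against thrombin, adjusted p = 1.4e-19). The aldo-keto reductases Akr1c14 and Akr1b10 thus had opposite directions in PD03 against thrombin, while both were lower in PD03 than in control.

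**Figure D5:**
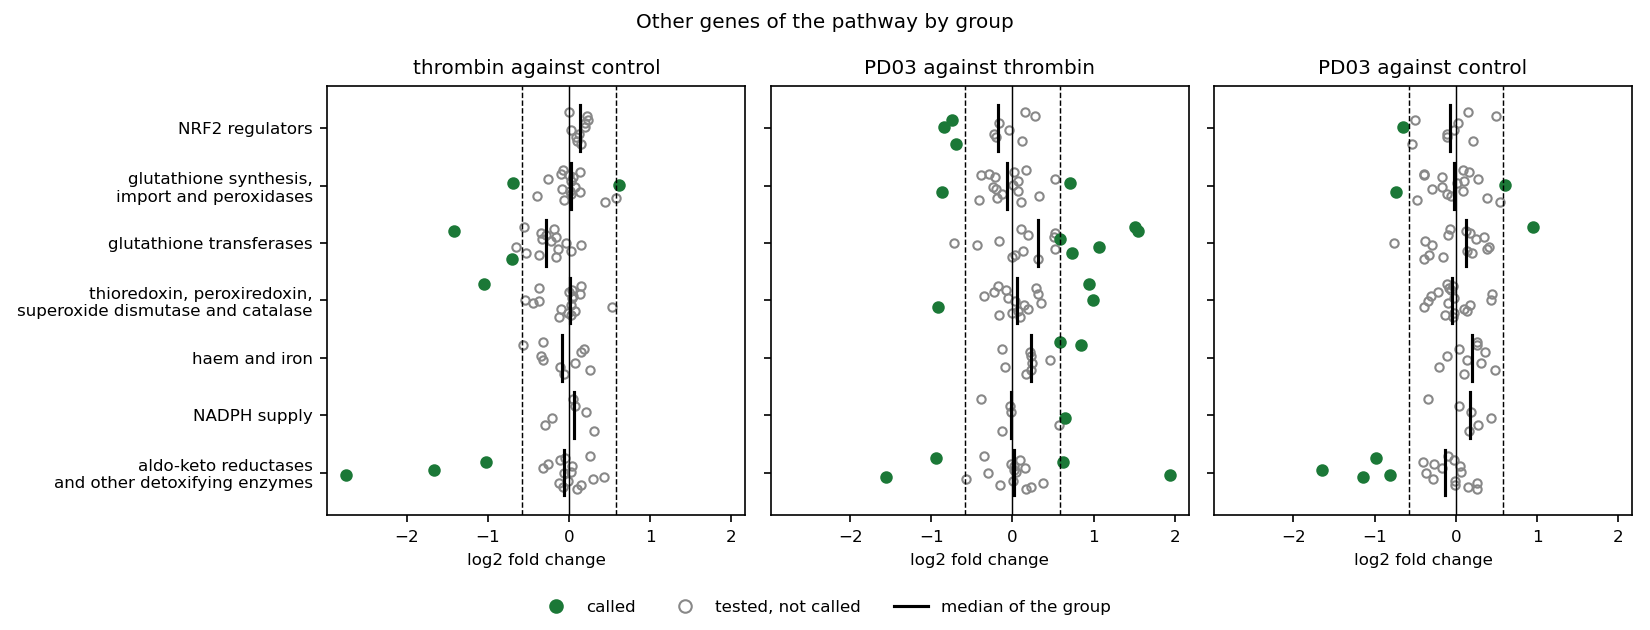
Log2 fold change (horizontal axis) of the 97 tested genes of the pathway list in 7 groups for the 3 comparisons, with filled points for called genes, open points for the others and a bar at the median of each group. Dashed lines stand at 0.58 on either side, and the points of the glutathione transferases lie mostly left of 0 with thrombin and right of 0 with PD03 added.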

How the data were processed

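Poly(A) RNA of 9 libraries was sequenced. For every gene the authors deposited 9 raw counts and 9 FPKM values. The paper names fastp, HISAT2, Rnor_6.0, featureCounts and DESeq2, while the submitters' processing notes name HISAT2, HTSeq 0.13.5 and mRatBN7.2; annotation release and strandedness were not stated in the sources used here. Of 19085 genes, 2048 had no symbol.

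Raw counts were tested with edgeR 4.0.16 in R 4.3.3 (TMM scaling, filterByExpr with a minimum count of 10, glmQLFit and glmQLFTest) over all 9 libraries in 1 model of 3 groups, with Benjamini-Hochberg adjustment over 13256 genes. The biological coefficient of variation was 4.28%, and replicates differed by more than sampling noise and were kept separate. SE and intervals come from the fit. The FPKM values deposited served to compare levels between genes and, on the log2 scale with 1 or 0.1 added, as alternatives in limma 3.58.1. DESeq2 1.42.0, limma voom, other scalings, filters and thresholds, a replicate block and leaving out each library were also run. The script was tested on simulated data. Libraries with the same replicate number correlated at -0.041 to 0.069 in their deviations from the group mean over all tested genes. This does not exclude a shared batch. In every group replicate 1 stood further from the other libraries. Its pairs gave a chi-square per degree of freedom against sampling noise of 3.06 to 4.04, while replicates 2 and 3 gave 1.82 to 2.15.

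All 10 genes are named. From each group of the pathway list up to 3 called genes with the largest fold and a mean of at least 1 CPM were named, and the 2 nearest genes only for a member called in both thrombin comparisons. The members and lists were chosen with earlier results of these data known. A symbol on 2 rows was taken from the row with more counts.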

Additional observations from a re-analysis of the deposited data

How the results depend on the processing

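Of 656 values of single members under alternatives, 623 kept their direction and their call or lack of one, 20 were newly called, 6 lost their call and 7 changed sign. Most of the new calls came from removing the fold threshold, where the fold changes themselves were those of the main fit. The sign changes were all of small differences: Srxn1 in PD03 against thrombin without thrombin replicate 3 (0.058, with -0.18 to 0.058 over the libraries left out), Gsr in PD03 against thrombin with library totals (-0.043), log2(FPKM + 1) (-0.043) and log2(FPKM + 0.1) (-0.045), and Gclm in PD03 against control with library totals (-0.0021), log2(FPKM + 1) (-0.0015) and log2(FPKM + 0.1) (-0.0016).

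Members called were 1 for thrombin against control, 2 for PD03 against thrombin and 1 for PD03 against control, the order kept here. With no fold threshold they were 6, 6 and 4, and with a log2 fold change above 1 the last 2 counts were 1 and 0. With a mean count of at least 50 the first 2 counts were 0 and 1, since Akr1c15 was then not tested. Library totals gave 1 and 4 for the last 2, log2(FPKM + 1) 1 and 3, and log2(FPKM + 0.1) 1 and 4. PD03 against thrombin gave 1 with glmTreat and 1 with only the 2 groups compared, where Akr1c15 was not tested.

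Called genes of the pathway list (8, 20 and 8) were 4, 10 and 3 with glmTreat, 40, 63 and 56 with no fold threshold, 5, 5 and 2 above 1, and 12 for PD03 against thrombin with log2(FPKM + 1). All genes called (1068, 2110 and 1189) were 460, 1051 and 499 with glmTreat, 3808, 6608 and 5289 with no fold threshold, 505, 935 and 519 above 1, and 543, 1254 and 676 with log2(FPKM + 1).

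Leaving out each library gave 1 to 1, 2 to 2 and 1 to 1 members, 8 to 11, 19 to 22 and 6 to 10 genes of the pathway list and 989 to 1085, 2043 to 2152 and 1168 to 1205 of all genes. With the replicate number as a block 1, 2 and 1 members and 9, 20 and 8 genes of the pathway list were called, so no count moved by over 1.5 times. Low counts limit Srxn1, Gsta4 and above all Akr1c15, and with 3 libraries a group small differences of these genes were not detectable. A cause of these shifts was not tested other than where the setting itself removes a gene or changes the threshold.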
